A study of Homo sapiens with 3 samples.

Results

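At least 1 transcript of REG4 or A1CF was found in 36.3% of the kept VCaP cells after 48 h of enzalutamide (ENZ). The other genes of cells with at least 2 such transcripts were compared with the cells that showed neither. VCaP is a prostate cancer cell line that carries a fusion of TMPRSS2 with ERG, and ENZ is an antiandrogen. In the VCaP–ENZ48 library a cell was called positive when its REG4 and A1CF counts together reached 2 unique molecular identifiers (UMIs, each marking 1 captured mRNA molecule) and negative when both were at 0. Of 816 cells kept by depth and quality, 133 were positive (16.3%, exact 95% interval 13.8 to 19%), 163 held 1 UMI and 520 were negative. The cells were thus chosen by their own REG4 and A1CF counts, and nothing is tested on these 2 genes. The whole series gave 2556 kept cells of 3000 barcodes.

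The series holds Drop-seq data, in which cells are caught in droplets with barcoded beads. VCaP–ENZ48 is VCaP in 10 µM ENZ for 48 h, VCaP parental is VCaP in the vehicle, 0.1% DMSO, for 48 h, and LNCaP–ENZ168 is LNCaP, another prostate cancer line, in 10 µM ENZ for 168 h. Each group is 1 library of 1 line, so a cell is no replicate, differences have no replicate check and none was tested. All intervals take in counting error alone.

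REG4 encodes a secreted C-type lectin of the regenerating family, made by the epithelium of the gut and by some of its tumors. A1CF encodes an RNA-binding protein that guides the deaminase APOBEC1 to apolipoprotein B mRNA in gut and liver. Neither gene is a usual product of prostate epithelium.

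REG4 lies on the minus strand of chromosome 1 (GRCh38, 119794017 to 119811580) and A1CF on the minus strand of chromosome 10 (50799409 to 50885675). The stretches below come from the 250 bases before each RefSeq transcript start on GRCh38.p14 and were chosen because they hold motif matches of factors known from gut epithelium or the core promoter. Capitals mark the matches. Both REG4 stretches overlap the gene as Gencode bounds it, because the RefSeq transcript starts further downstream, while the A1CF stretch lies upstream of the gene. The first shows the GATA letters AGATAA and the CDX letters TTTATNG of REG4 (chr1:119811558-119811587, minus strand), the second the TATA letters TATAAA of REG4 (chr1:119811474-119811503, minus strand), and the third the GATA letters on the other strand of A1CF (chr10:50885758-50885787, minus strand).
REG4, GATA and CDX letters: actgtAGATAAgactTTTATGGatggattg
REG4, TATA letters: gaggcaagaagaTATAAAagctccagaaac
A1CF, GATA letters: gtagtgacccaaTTATCTggtcaaagggct

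Both strands of 35116 promoters were searched for the same letters. GATA letters stood in 9.17% of them, CDX letters in 8.93% and TATA letters in 10.7%. In REG4 the GATA match ran from base -122 to -117, the CDX match from -112 to -106 and the TATA match from -31 to -26, counted back from the transcript start. In A1CF the GATA match ran from -148 to -143, and TATA letters stood at -205 to -200 and, on the other strand, at -207 to -202, where these matches overlap. The HNF4 letters AAAGTCC (3.20% of promoters), the FOXA letters TGTTTAC (2.98%) and the androgen response element letters TGTTCT (12.4%) had no match in either window. Nor had the HNF1 letters GTTAAT (6.23% of promoters).

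The 2 genes were spread over cells in different ways. REG4 gave 815 UMIs in 89 of the 816 cells, and 472 of them (57.9%) lay in 2 cells with 273 and 199 UMIs. The next cells held 64, 33 and 25 REG4 UMIs, and 27 cells in all held at least 3. REG4 made up 0.982% of all UMIs in the cell with most of it. A1CF gave 414 UMIs in 239 cells, with at most 7 in any cell. The variance of the count per cell was 148 times its mean for REG4, 21.1 times without the 2 highest cells, and 1.94 times for A1CF. REG4 was thus an uneven transcript with a few very high cells, and A1CF a low transcript found in many.

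**Figure D1:**
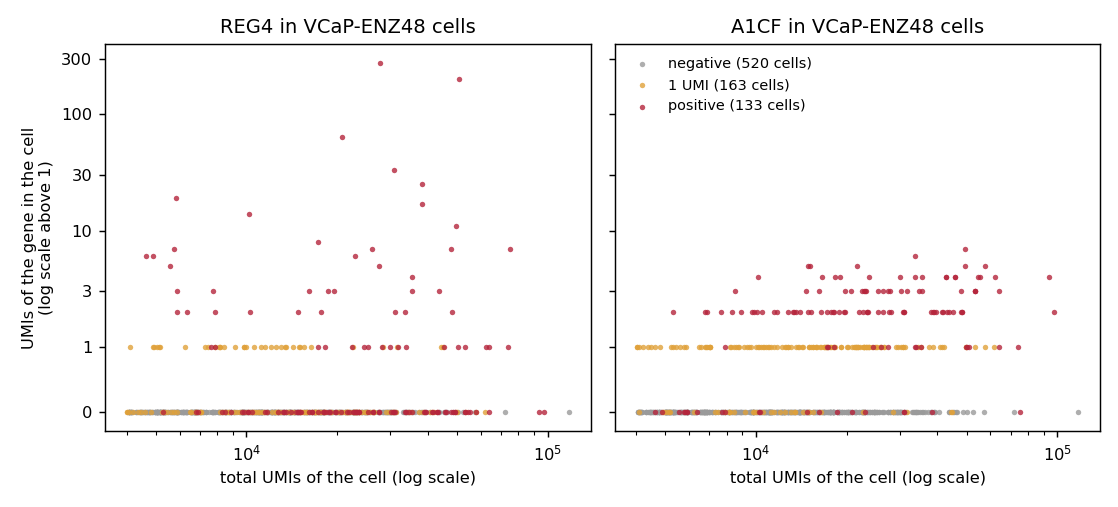
UMIs of REG4 (left) and A1CF (right) in each kept VCaP–ENZ48 cell against the total UMIs of the cell (log scales, the vertical one linear between 0 and 1), with negative, 1 UMI and positive cells in grey, orange and red. REG4 reached 273 and 199 UMIs in 2 cells while A1CF stayed at or under 7, and the positive cells lie mostly to the right.

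In VCaP–ENZ48, REG4 stood at 58.5 CPM over all kept cells (CPM, UMI counts scaled to the total of the cells summed, exact Poisson 95% interval 54.5 to 62.6) and at 24.7 CPM without its 2 highest cells. A1CF stood at 29.7 CPM (26.9 to 32.7). In VCaP parental REG4 was at 1.84 CPM and A1CF at 5.33 CPM, with 104 A1CF UMIs in 82 of 997 cells. In LNCaP–ENZ168 REG4 was at 3.39 CPM and A1CF at 1.43 CPM. REG4 was concentrated in each library: 32 of 36 REG4 UMIs of VCaP parental and 17 of 19 of LNCaP–ENZ168 came from 1 cell.

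Shares of cells with either transcript were also highest in VCaP–ENZ48. REG4 was found in 10.9% of VCaP–ENZ48 cells (8.85 to 13.2%), 0.502% of VCaP parental cells (0.163 to 1.17%) and 0.404% of LNCaP–ENZ168 cells (0.0833 to 1.18%). A1CF was found in 29.3% (26.2 to 32.5%), 8.22% (6.59 to 10.1%) and 1.08% (0.466 to 2.11%). Median depths were 13274, 17817 and 6203 UMIs. With each cell thinned to 4000 UMIs the REG4 shares were 5.64%, 0.201% and 0.404%, and the A1CF shares 8.58%, 2.21% and 0.404%, so both genes were found most often in VCaP–ENZ48 at equal depth as well. The LNCaP–ENZ168 shares serve as the level found in a line with little of either transcript.

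The 133 positive cells were made of 80 with A1CF alone, 21 with REG4 alone and 32 with both. REG4 was found in 13.4% of the 239 cells with A1CF (9.34 to 18.4%) and in 9.88% of the 577 without it (7.57 to 12.6%). Among cells of 10000 to 20000 UMIs these shares were 6.49% of 77 cells (2.14 to 14.5%) and 8.78% of 205 cells (5.29 to 13.5%). The intervals overlapped in both settings, and no preference of the 2 transcripts for the same cells was detectable at this depth.

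Depth moved with the grouping, since a deep cell reaches 2 UMIs more easily. The median positive cell held 23308 UMIs, the median cell with 1 UMI 14260 and the median negative cell 11311.5. Among positive cells 31 barcodes exceeded 3 times the library's median depth, against 13 among negative cells, and doublets may be among them. In 79.7% of positive and 87.1% of negative cells the barcode ended in the letter N in place of a base, for a reason that is not given. The part of depth in the results was not tested beyond the depth settings given. The comparison of positive with negative cells was therefore also made in cells of 10000 to 20000 UMIs, which left 36 positive and 187 negative cells with medians of 15669.5 and 13834 UMIs. The finer classes of cells and the other libraries are compared over all kept cells.

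At the threshold, 58 cells had exactly 2 UMIs and a median depth of 18156.5, against 163 cells with exactly 1. REG4 was at 14.3 CPM and A1CF at 68.8 CPM in the former, and at 13 and 45.9 CPM in the latter. Over all positive cells REG4 was at 210.0 CPM and A1CF at 77.4 CPM, and both were at 0 in negative cells by the rule. These values were used to choose the cells and are given as a description.

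VCaP identity was alike in both groups. ERG, expressed in VCaP from the fusion, was at 56.3 CPM in positive and 58.1 CPM in negative cells. Of 14 stromal, immune and endothelial markers 8 were found, and in positive cells the leukocyte gene PTPRC gave 1 UMI, PDGFRB and COL3A1 gave 0 against 1 each in negative cells, and LUM alone passed 20 CPM, at 23.5 CPM against 24.5 CPM. One barcode sequence was shared between VCaP–ENZ48 and each other library.

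Positive cells had more transcripts of PLA2G2A, IGFBP3, DDC and MME and fewer of CENPU, ATAD2, TK1 and RRM1. The 5487 genes whose mean over both groups reached 20 CPM, without REG4 and A1CF, were compared. Of these 19 were at least 1.5-fold higher in positive cells both over all kept cells and within 10000 to 20000 UMIs (0.346% of genes tested), and 11 were at least 1.5-fold lower (0.2%). The median log2 ratio of all tested genes was 0.038 over all kept cells and 0.074 within the depth range. Scaling by TMM factors left 7 higher and 17 lower genes. With negative cells weighted to the depth of the positive cells 27 genes were higher and 36 lower, among them 9 of the 19 and 10 of the 11.

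Within 10000 to 20000 UMIs alone 376 genes were 1.5-fold higher (6.85%) and 275 lower (5.01%), where 36 positive cells gave 553623 UMIs. Over all kept cells alone the numbers were 45 (0.82%) and 15 (0.273%). Of the 45, 14 had a ratio below 0 in the depth range and 6 were at least 1.5-fold lower there.

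PLA2G2A, a secreted phospholipase A2 made in the gut and at sites of inflammation (chromosome 1, 19975431 to 19980416), was the most abundant of the higher genes. It was at 764 CPM in positive (95% interval 736 to 793) and 439 CPM in negative cells (424 to 454), a log2 ratio of CPM + 1 of 0.80 (exact interval of the ratio of counts 0.73 to 0.87). Within the depth range it was at 1159.6 and 452 CPM, a log2 ratio of 1.36 (1.22 to 1.5). Single cells ranged widely there: the median was 254 CPM in positive and 193 CPM in negative cells, the upper quartile 884 and 406 CPM and the highest cell 9483 and 5824 CPM. The groups overlapped over nearly their whole range, and the higher sum of PLA2G2A came from the upper cells.

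IGFBP3, which binds insulin-like growth factors outside the cell (chromosome 7, 45912245 to 45921874), was at 148 CPM in positive and 77.1 CPM in negative cells, a log2 ratio of 0.93 (0.77 to 1.11), and at 172 and 85.1 CPM in the depth range (1.00, 0.65 to 1.36). One cell, also the second highest in REG4, held 15.0% of the IGFBP3 UMIs of positive cells. Without the 2 highest REG4 cells IGFBP3 was at 123 CPM, a log2 ratio of 0.67 (0.50 to 0.86). Its median in the depth range was 102 CPM in positive and 57.4 CPM in negative cells. The difference in IGFBP3 was thus smaller without those cells and kept its direction.

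The share of cells in which a gene was found was also compared at equal depth. With each cell thinned to 4000 UMIs, IGFBP3 was found in 36.8% of positive (28.6 to 45.6%) and 24.8% of negative cells (21.2 to 28.8%), against 75.2% and 52.1% before thinning. MME was found in 11.3% (6.45 to 17.9%) and 5.19% (3.45 to 7.46%) after thinning, and in 24.1% and 12.1% before. PLA2G2A was found in 66.9% (58.2 to 74.8%) and 58.8% (54.5 to 63.1%) after thinning and in 91.0% and 81.7% before, and DDC in 34.6% (26.6 to 43.3%) and 26.5% (22.8 to 30.6%) after thinning. At this depth the intervals of positive and negative cells overlapped for IGFBP3, MME, PLA2G2A and DDC.

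DDC, the decarboxylase that forms dopamine and serotonin (chromosome 7, 50458436 to 50565405), was at 165 and 97.1 CPM (0.76, 0.61 to 0.92) and in the depth range at 231 and 110.5 CPM (1.06, 0.75 to 1.37). ADM, the vasodilator peptide adrenomedullin (chromosome 11, 10305073 to 10307397), was at 61.5 and 37.0 CPM (0.72, 0.47 to 0.99). RASSF8, a protein with a Ras association domain (chromosome 12, 25958232 to 26079892), was at 51.2 and 32 CPM (0.66, 0.40 to 0.96). In the depth range ADM had a log2 ratio of 0.61, whose interval reached below 0 (-0.0093 to 1.22), and RASSF8 of 0.86 (0.27 to 1.47). ADM was not higher among barcodes ending in a base, where its log2 ratio was -0.092.

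The other 14 higher genes stood under 50 CPM and are named here because they passed the same fold in both settings. MME, the membrane peptidase neprilysin, had the largest ratio of the 19 over all kept cells, at 35.9 CPM in positive and 11.4 CPM in negative cells (log2 ratio 1.57, 1.25 to 2.07), and a log2 ratio of 1.12 in the depth range (0.069 to 2.24). SHH, a hedgehog ligand, was at 43.4 and 25.2 CPM (0.76), CCN1, a matricellular protein, at 32.6 and 20.1 CPM (0.67) and ANTXR2, a receptor for matrix proteins, at 35.6 and 21.6 CPM (0.70). TRIM24, a cofactor of nuclear receptors, was at 42.3 and 27.1 CPM (0.63) and reached 1.5 in the depth range, and KIF13B, a kinesin motor, was at 26.2 and 15.3 CPM (0.74) and reached 1.90. ABI1, ASXL1, MYO9A, PHC3, SLCO5A1, SNX12, TMEM170A and WIPI2 had log2 ratios between 0.59 and 0.90. In the depth range the intervals of CCN1, ABI1, ASXL1, PHC3, SNX12, TMEM170A and WIPI2 extended to negative log2 ratios. Their lower ends ran from -0.25 (SNX12) to -0.022 (ABI1), and the intervals of the other genes in this group stayed positive. Against negative cells weighted to the same depth, KIF13B was at 0.33, PHC3 at 0.41, TRIM24, SLCO5A1 and WIPI2 at 0.45, RASSF8 at 0.48, SNX12 at 0.52 and MYO9A at 0.57, all under 1.5-fold. IGFBP3 and PLA2G2A were at 1.17, SHH at 1.12 and MME at 2.06 under the same weighting.

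MME is abundant in LNCaP, at 2626 CPM in LNCaP–ENZ168. Of the other genes listed as restricted to LNCaP, NCAM2 gave 7 UMIs in positive and 7 in negative cells, ADGRG6 5 and 7 and UGT2B17 3 and 7, so MME alone of these had more than a few UMIs.

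The lower genes were led by replication. CENPU, a centromere protein (chromosome 4, 184694085 to 184734130), was at 24.5 CPM in positive and 60.3 CPM in negative cells, a log2 ratio of -1.26 (-1.64 to -0.97). ATAD2, a chromatin ATPase with a bromodomain, was at 43.9 and 80.9 CPM (-0.87, -1.14 to -0.63). RRM1, the large subunit of ribonucleotide reductase (chromosome 11, 4094707 to 4138932), was at 33.2 and 53.2 CPM (-0.67, -0.98 to -0.39). H4C3, a histone H4 gene of the replication-dependent clusters (chromosome 6, 26103933 to 26104337), was at 218 and 375 CPM (-0.78, -0.90 to -0.67). H4C3 is uncertain, because near-identical H4 genes share its reads.

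Within 10000 to 20000 UMIs the log2 ratios were -1.67 for CENPU (-3.24 to -0.59), -0.98 for ATAD2 (-1.82 to -0.28), -0.96 for RRM1 (-1.94 to -0.16) and -0.98 for H4C3 (-1.33 to -0.65). Most cells showed none of CENPU: its upper quartile was 0 CPM in both groups, and the highest cell reached 87.0 CPM among positive and 1084 CPM among negative cells. In this depth range the negative cells thus held a few cells with more CENPU than any positive cell.

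Of the other 7 lower genes, TK1, the thymidine kinase of S phase, was at 15.4 and 40.3 CPM (-1.34), PCLAF, a partner of the replication clamp PCNA, at 17.8 and 47.9 CPM (-1.38) and FAM111B at 11.9 and 29.6 CPM (-1.25). SAMHD1, which degrades deoxynucleotides, was at 16.7 and 26.5 CPM (-0.64), SDF2L1, of the endoplasmic reticulum, at 29.4 and 46.5 CPM (-0.64), CDCP1 at 15.9 and 25.3 CPM (-0.64) and CKLF at 19.7 and 30.3 CPM (-0.60). CENPU, ATAD2, RRM1, TK1, PCLAF and FAM111B are expressed in or around S phase.

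Of 43 S phase genes, 19 passed 20 CPM. None was higher and 3 were lower (CENPU, ATAD2 and RRM1), where 0.346% and 0.2% of all genes tested were. The median log2 ratio of the 19 was -0.46 over all kept cells and -0.35 in the depth range, against 0.038 and 0.074 for all genes tested. PCNA, the sliding clamp, was at 74.4 CPM in positive and 110 CPM in negative cells (-0.56), MCM4, of the replicative helicase, at 35.3 and 60.4 CPM (-0.76) and HELLS at 18.1 and 39.9 CPM (-1.10). None of these 3 reached the fold in the depth range, where PCNA was at -0.35, MCM4 at -0.21 and HELLS at -0.18.

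The cells with most cell cycle UMIs were left out in turn. With the 10% of cells richest in S and G2M phase UMIs left out, 1 gene was lower in place of 11, and the log2 ratios of CENPU, ATAD2, TK1 and FAM111B were 0.10, 0.14, 0.20 and 0.20. CENPU, ATAD2 and RRM1 are themselves among the genes that ranked the cells, so the filter acts on them directly. Negative cells weighted to the depth of positive cells gave -1.90 for CENPU, -1.50 for ATAD2, -1.09 for H4C3 and -0.84 for RRM1, and -0.45 for SAMHD1.

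Mitotic genes turned direction between the settings. Of 54 G2M phase genes 26 passed 20 CPM and none met the fold in both settings, and their median log2 ratio was 0.17 over all kept cells and -0.24 in the depth range. Their summed level had a log2 ratio of 0.25 (0.20 to 0.29) and of -0.32 (-0.45 to -0.20), against -0.51 and -0.45 for the S phase genes. One positive cell, with 2 A1CF and 0 REG4 UMIs and 47726 UMIs in all, held 2887 of the 7335 G2M phase UMIs of positive cells (39.4%), while the highest negative cell held 6.20%. CENPF, a kinetochore protein, was at 70.9 CPM in positive and 31.6 CPM in negative cells (1.14) but at 3.61 and 24.6 CPM in the depth range (-2.47), and that cell held 87.1% of its UMIs. CENPE, ASPM and AURKA had log2 ratios of 1.63, 1.34 and 1.28 over all kept cells and of 0.021, -1.13 and -0.062 in the depth range. TOP2A and MKI67 were at 12.6 and 0 CPM in positive cells of the depth range against 54.9 and 13.2 CPM in negative cells, where a count of 0 allows MKI67 up to 5.42 CPM. Without that cell 20 genes were higher and 20 lower, in place of 19 and 11.

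**Figure D2:**
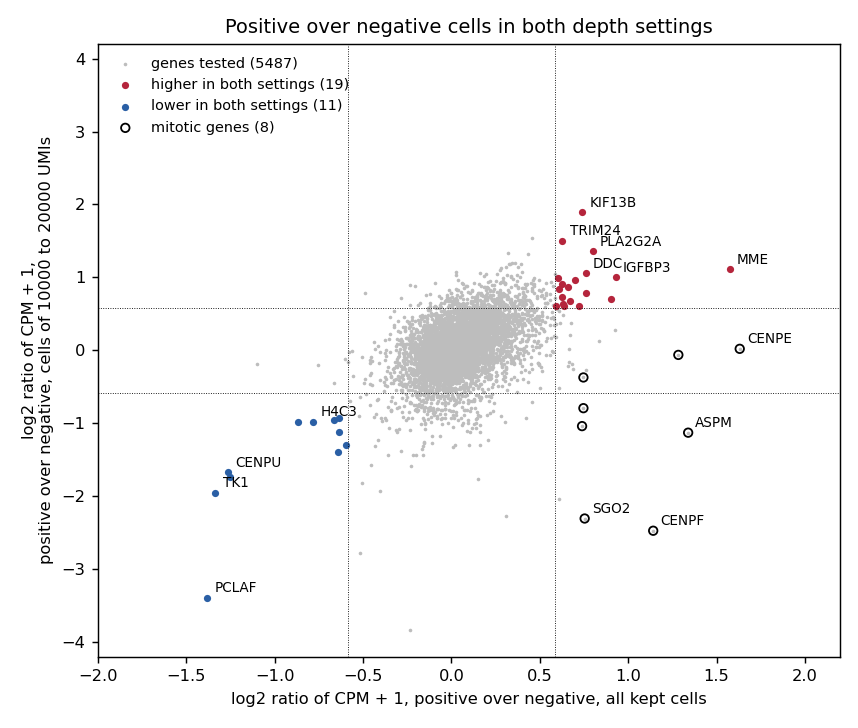
Log2 ratio of CPM + 1 of positive over negative cells for 5487 genes, over all kept cells (horizontal) and over cells of 10000 to 20000 UMIs (vertical), with dotted lines at 1.5-fold. The 19 higher genes lie in the upper right corner, the 11 lower genes in the lower left, and the circled mitotic genes are higher on the horizontal axis and near or below 0 on the vertical one.

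The levels of IGFBP3, MME, ADM and SHH are given next for cells with REG4 and cells with A1CF alone. The 21 cells with at least 2 REG4 UMIs and no A1CF leave out the 2 cells highest in REG4. The 207 cells with A1CF and no REG4 needed only 1 A1CF UMI, so the thresholds are unlike, and 80 of them reached 2. Both sets were compared with the same 520 negative cells, so the comparisons share their negative cells and were not tested against each other. Of the 19 higher genes, called with the 21 and the 80 among the positive cells, 13 were 1.5-fold higher in the 21 cells. In the 207 cells 4 were, and in the 80 cells 8 were and 1 was 1.5-fold lower. IGFBP3 was at 495 CPM in the REG4 cells (424 to 574), 81.4 CPM in the A1CF cells (73.3 to 90.1) and 77.1 CPM in negative cells. MME was at 234 CPM (186 to 291), 9.48 CPM (6.86 to 12.8) and 11.4 CPM. ADM was at 189, 44.5 and 37.0 CPM and SHH at 114, 32 and 25.2 CPM. In IGFBP3, MME, ADM and SHH the intervals of the REG4 cells lay above those of the A1CF cells. The cells with 64, 33 and 25 REG4 UMIs are among the 21. They gave 18, 9 and 21 MME UMIs, of 133 in all positive cells, so the MME level of the 21 rests in good part on them. The 21 cells gave 349810 UMIs with a median of 10199 a cell, and the 207 cells 4535184 with a median of 18059. Over all 5487 genes, 8.95% were 1.5-fold higher and 9.80% lower in the 21 cells, against 0.328% and 0.219% in the 207 cells. In the 80 cells these shares were 1.37% and 0.529%.

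PLA2G2A was above the negative cells in both, at 1424 CPM in the 21 REG4 cells (1301 to 1554) and 657 CPM in the A1CF cells (633 to 681). DDC was at 152 CPM (113 to 198) and 149 CPM (138 to 161), against 97.1 CPM in negative cells. RASSF8 was at 37.2 CPM (19.8 to 63.5) in the REG4 cells and 46.5 CPM (40.5 to 53.2) in the A1CF cells. AGR2, a disulfide isomerase of mucus-secreting epithelium that was named after its values were seen, was at 1298 CPM in the REG4 cells and 529 CPM in the A1CF cells, against 510 CPM. For DDC and RASSF8 the intervals of the REG4 and A1CF cells overlapped.

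A wider set, the 27 cells with at least 3 REG4 UMIs whether or not A1CF was found, was added after seeing the data and holds the 2 highest cells. It had IGFBP3 at 417 CPM (log2 ratio over negative cells 2.42, 2.23 to 2.64), MME at 121 CPM (3.30, 2.96 to 3.87), PLA2G2A at 1656 CPM (1.91, 1.82 to 2.01) and DDC at 186 CPM (0.93, 0.66 to 1.21). The A1CF cells had log2 ratios of 0.076 for IGFBP3 (-0.12 to 0.27), -0.24 for MME (-0.83 to 0.28), 0.58 for PLA2G2A (0.51 to 0.65) and 0.61 for DDC (0.47 to 0.77).

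**Figure D3:**
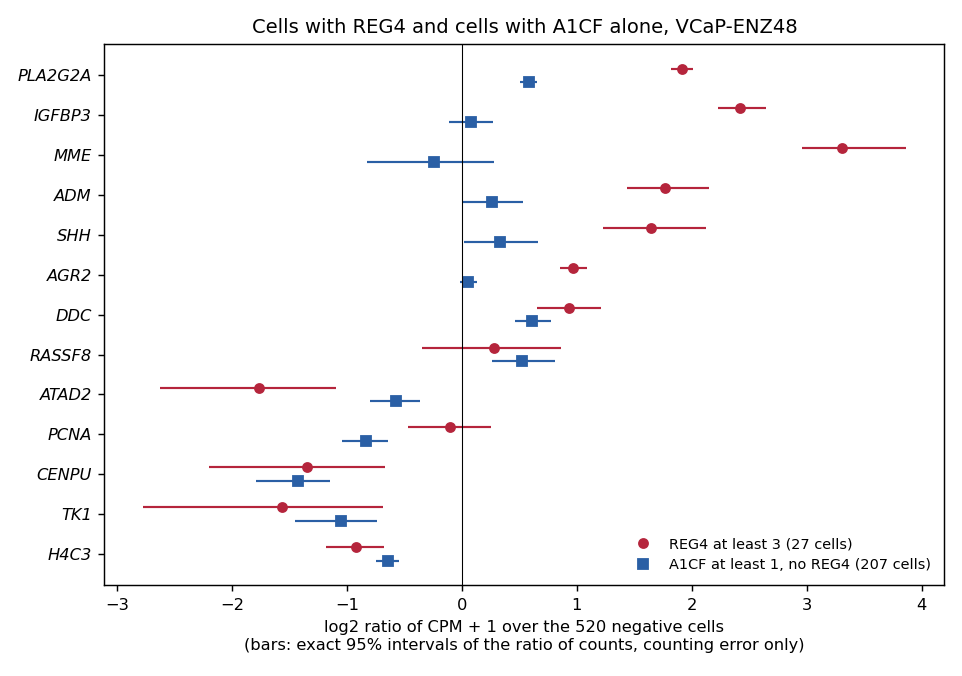
Log2 ratios of CPM + 1 over the 520 negative cells, with exact 95% intervals of the ratio of counts. Red circles are 27 cells with at least 3 REG4 UMIs. Blue squares are 207 cells with at least 1 A1CF UMI and no REG4. IGFBP3, MME, ADM, SHH and AGR2 lie to the right for the REG4 cells and near 0 for the A1CF cells, while CENPU, TK1 and H4C3 lie to the left for both.

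CENPU, TK1 and H4C3 stood below the negative cells in both kinds of cell. CENPU was at 23.1 CPM in the 27 cells and 21.8 CPM in the A1CF cells, TK1 at 13 and 19 CPM and H4C3 at 198 and 239 CPM, against 60.3, 40.3 and 375 CPM in negative cells. PCNA was at 102.5 CPM in the 27 cells, near the 110 CPM of negative cells, and at 61.3 CPM in the A1CF cells.

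Individual REG4 cells differed in what else they held. The cell with 273 REG4 UMIs had 50 PLA2G2A, 18 IGFBP3 and 15 MME UMIs, and the cell with 199 had 192, 82 and 0. The cells with 64, 33 and 25 REG4 UMIs had 18, 9 and 21 MME UMIs. MGP, an inhibitor of calcification, and TGM4, the prostate transglutaminase, were picked after their values were seen. MGP gave 19 and 17 UMIs in the cells with 33 and 25 REG4 UMIs, and TGM4 33 UMIs in the cell with 199 and 29 in the cell with 19. Over the 27 cells MGP was at 69.3 CPM (51.1 to 91.9) and TGM4 at 105 CPM (82.6 to 132), against 5.49 and 1.61 CPM in negative cells. A few cells thus set the levels of MGP and TGM4, and not the same ones.

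Sorted by the UMIs of REG4 and A1CF together, the higher genes followed different courses. IGFBP3 was at 77.1, 89.7, 102, 96.2 and 291 CPM in cells with 0, 1, 2, 3 or 4, and 5 or more UMIs. Its level was close from 1 to 4 UMIs and higher in the 31 cells with 5 or more. PLA2G2A was at 439, 722, 512, 584 and 1400.3 CPM, and so did not climb steadily. DDC was at 97.1, 127, 172, 155 and 169 CPM.

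CENPU was at 60.3 CPM without either transcript and at 23.9, 26.5, 26.2 and 19.1 CPM in the other 4 classes, so that it was as low in cells with 1 UMI as in positive cells. TK1 was at 40.3, 24.2, 12.9, 20.4 and 11.7 CPM and ATAD2 at 80.9, 61.5, 44.5, 49.6 and 35.0 CPM. Cells with 1 UMI had been left out of both groups.

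**Figure D4:**
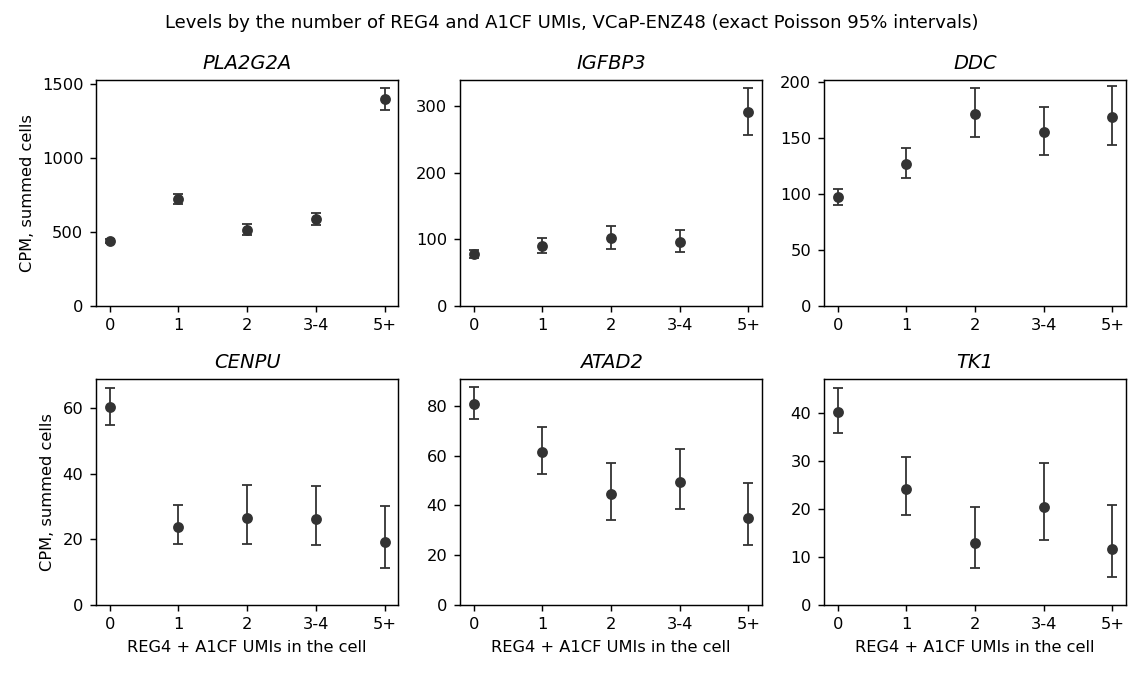
CPM of 6 genes in summed VCaP–ENZ48 cells by the number of REG4 and A1CF UMIs in the cell (0, 1, 2, 3 to 4, 5 or more), with exact Poisson 95% intervals. IGFBP3 stands out at 5 or more UMIs, at 291 CPM, and CENPU is at 60.3 CPM at 0 and at or under 26.5 CPM in every other class.

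Genes of gut epithelium did not move as a group. Of 24 gut transcription factors 19 were found and 5 passed 20 CPM, and none was called. Their median log2 ratio was 0.13, and 0.35 in the depth range. SPDEF, a factor of goblet cells, was at 102 CPM in positive and 78.5 CPM in negative cells (0.38, 0.19 to 0.57), and ONECUT2 at 43.7 and 31.2 CPM (0.47, 0.19 to 0.78). HNF4G, a nuclear receptor of gut epithelium, gave 31 UMIs in positive and 45 in negative cells (8.36 and 6.03 CPM) and CDX2 25 and 29 UMIs (6.74 and 3.88 CPM).

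Of 51 gut secreted and surface genes 29 were found and 7 passed 20 CPM. Of these PLA2G2A was higher, where 0.346% of all genes tested were. TFF1 and TFF3, peptides of the mucus layer, were at 25.1 and 21.6 CPM in positive and 21.0 and 23.4 CPM in negative cells. AGR2 was at 599 and 510 CPM (0.23, 0.16 to 0.31) and TSPAN8, a tetraspanin of gut and prostate tumors, at 665 and 670 CPM.

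Of 15 genes of apolipoprotein B editing and related RNA binding 12 were found and 7 passed 20 CPM, and none was called. RBM47, which works with APOBEC1 as A1CF does, was at 226 and 189 CPM (0.26), SYNCRIP at 195 and 192 CPM and CELF1 at 39.1 and 36.3 CPM. The editing target itself, APOB, gave 0 UMIs in positive and 1 in negative cells. Of 30 liver genes 18 were found and 2 passed: ALB, albumin, at 93.0 and 71.8 CPM (0.37, 0.17 to 0.57) and TTR at 86.5 and 76.3 CPM (0.18).

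Androgen response was alike in both groups. Of 30 androgen-responsive genes 20 passed 20 CPM, none was called, and the median log2 ratio was 0.072, and 0.19 in the depth range. KLK2, an androgen-induced kallikrein, was at 3118 and 2944 CPM (0.082, 0.050 to 0.115) and FKBP5 at 19.4 and 26.0 CPM (-0.40, -0.83 to -0.023). TMPRSS2 was at 17.5 and 17.3 CPM and SLC45A3 at 22.4 and 23.2 CPM.

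Another 11 genes were listed as differing by drug between these same VCaP libraries, with earlier results of these data known. Of them 7 passed 20 CPM, and PLA2G2A, also a member of the gut list, was higher, where 0.346% of all genes tested were. CCN3, a matricellular protein, was at 343 and 313 CPM (0.13), FBLN2, a matrix fibulin, at 225 and 189 CPM (0.25, and 0.64 in the depth range, 0.37 to 0.90), RGS4 at 59.3 and 51.2 CPM (0.21) and SHROOM1 at 69.8 and 66.3 CPM (0.074). NPY, neuropeptide Y, was at 92.5 and 121 CPM (-0.38, -0.57 to -0.20). The other 5 members, GTSE1, DLGAP5, HMMR, UBE2C and KIF20A, are mitotic genes. UBE2C was at 49.6 and 29.3 CPM (0.74, and -1.04 in the depth range) and DLGAP5 at 21.0 and 8.17 CPM (1.26, and -0.36), and the highest positive cell for each held 67.4% and 73.1% of its UMIs in positive cells. NPY was at 159 CPM in the 27 cells with at least 3 REG4 UMIs and 88.9 CPM in the 207 cells with A1CF alone.

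The other VCaP library, whose cells the calls did not use, held 86 cells with REG4 or A1CF and 911 without. Of the 19 higher genes 13 had a log2 ratio above 0 there, against 52.6% of all 5487 genes. At least 1.5-fold higher was 1 of the 19, where 0.547% of all genes tested were. Of the 11 lower genes 1 had a ratio above 0 and none was 1.5-fold lower, where 0.583% of all genes tested were. The median of the 11 was -0.21. H4C3 was at 1353 and 1875 CPM (-0.47), CENPU at 263 and 343 CPM (-0.38) and PCNA at 324 and 393 CPM (-0.27). In the 18 cells with at least 2 UMIs, 6 of the 11 lower genes were 1.5-fold lower and 3 had a ratio above 0. Of the 19 higher genes 6 were 1.5-fold higher and 2 were 1.5-fold lower. Of all genes tested 7.51% were 1.5-fold higher and 9.02% lower in these 18 cells. CENPU was at 206 CPM there, H4C3 at 864 CPM and PCNA at 160 CPM. VCaP parental is a cycling library, with TOP2A at 1051 CPM against 81.6 CPM in the negative VCaP–ENZ48 cells.

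PLA2G2A and DDC were not higher in those 86 cells, at 24.8 and 22.7 CPM against 31.5 and 27.4 CPM. ADM was at 51.1 CPM (41.6 to 62.3) against 31.9 CPM (29.3 to 34.7) and IGFBP3 at 30.5 CPM (23.2 to 39.3) against 24.9 CPM (22.6 to 27.4). One cell held 32 of the REG4 UMIs, with 14 ADM, 11 IGFBP3, 7 MME and 0 TGM4 UMIs of 25424. It gave 14 of the 99 ADM UMIs and 11 of the 59 IGFBP3 UMIs of the 86 cells.

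LNCaP–ENZ168 had 11 cells with either transcript and 732 without, too few for a comparison of most genes. Its cell with 17 REG4 UMIs held 0 PLA2G2A, 0 IGFBP3, 51 MME and 21 DDC UMIs of 30934, and both MME and DDC are abundant in this line, with DDC at 826 CPM over all its cells.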

How the data were processed

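Drop-seq was run on 3 libraries, 1 per group. The deposited values are UMI counts per gene and barcode, which the authors made with the Drop-seq tools, STAR and Picard on GRCh38 with Gencode genes. They processed each library for an expected 1000 cells, and each file holds 1000 barcodes. For single-cell RNA-seq they describe filters on genes, molecules and mitochondrial reads, whose thresholds were not used here. Here cells were kept with at least 4000 UMIs, 300 genes and at most 25% mitochondrial UMIs. Kept cells held 13941851 UMIs in VCaP–ENZ48, 19515202 in VCaP parental and 5599977 in LNCaP–ENZ168. Doublets were not identified or removed.

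UMIs were summed over the cells of a group and scaled to CPM. Ratios are log2 ratios of CPM + 1 with exact conditional 95% intervals, taken on the ratio of counts without the added 1. CPM carry exact Poisson and shares exact Clopper-Pearson intervals, and a count of 0 allows up to 3 counts. A gene was called when it differed at least 1.5-fold both over all kept cells and in cells of 10000 to 20000 UMIs. With 1 library per group no test was made. The ratio and its interval were tried on simulated group sums with counting error alone. Those sums had no spread between cells and no depth range, so they do not test the calls.

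The groups, the 24 gene lists (788 genes, 691 found) and the rules were chosen with earlier results of these data known. Named genes were REG4 and A1CF, up to 12 higher and 10 lower called genes of at least 50 CPM in either group, found in at least 20 cells of the higher group with no cell holding over 20% of its UMIs (5 and 4 passed), up to 4 members of a list by level or role and a fixed set of androgen, drug and cell cycle genes. The other called genes are named because they are few. Coordinates are from a later Gencode version than the authors used, and promoter sequences from RefSeq on GRCh38.p14. Alternatives covered cells, depth, scaling, pseudocount, expression minimum, fold and the UMIs that make a cell positive. The tools were matplotlib 3.10.9, scipy 1.17.1, pandas 2.3.3 and numpy 2.4.6 under Python 3.11.15, and edgeR 4.0.16 under R 4.3.3 for TMM factors. HNF4A is not analysed here, and some genes of the lists are not reported here.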

Additional observations from a re-analysis of the deposited data

How the results depend on the processing

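No paired analysis was possible because there is a single library per group. Of 19 higher and 11 lower genes, the counts were 475 and 187 by the range of 10000 to 20000 UMIs alone, among genes of at least 20 CPM in that range, and 257 and 106 with each cell thinned to 4000 UMIs. They were 54 and 20 without barcodes over 3 times the median depth, 129 and 117 for barcodes ending in a base, 37 and 29 without mitochondrial and ribosomal protein genes, 65 and 32 at a minimum of 10 CPM and 3 and 2 at 50 CPM. A pseudocount of 5 CPM left 9 and 7, TMM scaling 7 and 17 and a fold of 2 left 1 and 4. Defining positive cells by 1 UMI gave 3 and 4. Cells with at least 1 A1CF UMI against cells with 0 A1CF, whatever their REG4, gave 4 and 6. Cells with at least 2 REG4 UMIs against cells with 0 REG4, whatever their A1CF, gave 135 and 85. Only the higher count moved with equal weight of cells (53), at least 3 UMIs (35), at most 10% mitochondrial UMIs (29) and barcodes ending in N (35), and the lower count with negative cells matched on depth (36, of which 10 among the 11, beside 27 higher genes with 9 of the 19) and without the 10% most cycling cells (1). Chosen after seeing the data, cells with at least 3 REG4 UMIs gave 185 and 91, and leaving out the cell with most G2M UMIs gave 20 lower genes. The cause was not tested.

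The positive share of 16.3% was 36.3% at 1 UMI, 9.19% at 3 UMIs, 3.19% after thinning, 12.8% in the depth range and 22.5% among barcodes ending in a base. Of the values of named genes under alternatives, 975 stayed within the counting interval, 414 moved and 11 turned direction. Without the 10% most cycling cells CENPU was at 0.10, ATAD2 at 0.14, FAM111B at 0.20 and TK1 at 0.20. With at least 2 REG4 UMIs against 0 REG4, MYO9A was at -0.14, PHC3 at -0.38 and TMEM170A at -0.049. MYO9A was at -0.088 in cells with at least 3 REG4 UMIs. MME was at -0.51 with at least 1 A1CF UMI against 0 A1CF, where the cells compared against include those with REG4 alone. Among barcodes ending in a base ADM was at -0.092 and SLCO5A1 at -0.22.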

Other observations

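Of 17 genes of endoplasmic reticulum stress and protein folding in VCaP–ENZ48, 12 passed 20 CPM. Of these 1 was lower (SDF2L1) and none higher, where 0.2% and 0.346% of all genes tested were. The median log2 ratio of the 12 was -0.12 over all kept cells and -0.011 in the depth range. HSPA5, the chaperone BiP, was at 683 CPM in positive and 782.5 CPM in negative cells (log2 ratio -0.20, -0.26 to -0.13). No gene of the EGFR family and its ligands and feedback genes passed 20 CPM. Their summed level had a log2 ratio of 0.52 (0.35 to 0.69), and 0.82 in the depth range (0.45 to 1.19). ERBB3 gave 34 and 28 UMIs (9.17 and 3.75 CPM) and DUSP6, a phosphatase induced by ERK signaling, 85 and 112 UMIs (22.9 and 15.0 CPM).

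Of 27 neuroendocrine and enteroendocrine markers 17 were found and 3 passed 20 CPM, with a median log2 ratio of -0.014, and -0.17 in the depth range. CHGA was at 31.8 and 32.1 CPM and CHGB at 205 and 187 CPM. The immediate early and dissociation genes had a median of 0.099 over 11 genes (0.17 in the depth range), the glucocorticoid targets of -0.039 over 5 (-0.021) and the interferon-stimulated genes of 0.17 over 3, which turned to -0.23, with none called. Of the signatures given with the study, PROSGenesis had 1 higher gene of 41, Persist none of 9, the initial clusters 1 higher of 114 and the ENZ-induced clusters 2 higher and 1 lower of 126, where 0.346% of all genes tested were higher and 0.2% lower. Their medians were 0.053, 0.11, 0.063 and 0.017 over all kept cells and 0.15, -0.14, 0.091 and 0.065 in the depth range. Persist turned direction, also in its summed level, from 0.29 to -0.19. Luminal markers had a median of 0.095 over 7 genes (0.26 in the depth range), the VCaP-restricted genes of 0.14 over 5 (0.079) and the genes led by drug of 0.21 over 7 (0.11). No basal or club marker passed 20 CPM.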
